A study of Homo sapiens with 2 samples.

Results

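The genes of the proteasome were compared between 2 libraries of A2780, a human cell line established from an ovarian cancer. Members were the protein-coding rows whose symbol begins with PSMA, PSMB, PSMC, PSMD, PSME, PSMF or PSMG followed by a digit. The rule took 49 of 58735 genes in the deposited table. They were 7 core alpha and 7 core beta subunits, 3 immunoproteasome subunits, 2 tissue-restricted core subunits, 6 regulatory ATPases, 11 regulatory non-ATPase subunits, 7 assembly chaperones and 5 activators or inhibitors. The remaining gene, PSMC3IP, encodes HOP2, a factor of meiotic recombination, and carries the prefix only because its product binds PSMC3. It is kept apart below.

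The shControl library carries the genotype label WT, and the design text describes it as cells with an empty vector. The shJAM3 library carries the genotype label JAM3 knockdown, and the design text names a stable knockdown through siRNA, although sh stands before the gene in the title. Both were grown under standard conditions to log phase, and mRNA was captured by its poly(A) tail. With 1 library in each group there is no test of the conditions, and what follows compares these libraries, with no replicate check. In bulk RNA, fewer cells of a type and less RNA per cell cannot be told apart.

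The libraries held 15570262 and 16455079 fragments. JAM3, the gene targeted, had 18 fragments in shControl and 14 in shJAM3 (ratio of FPKM 0.716, 0.330 to 1.52), so the labels could not be checked by it at this depth. Of 8 epithelial and ovarian markers only KRT8 and KRT18, keratins of simple epithelia, reached a mean of 1 FPKM, which counts fragments for each kilobase of a gene and corrects for library size. EPCAM, CDH1, PAX8, WT1, MUC16 and KRT19 were below it. The 8 blood and endothelial markers summed to 3.32 FPKM in shControl and 1.77 in shJAM3, and PTPRC, which encodes the leukocyte antigen CD45, had no fragment in either. CD14, a monocyte gene, was the only one of them with a mean above 1 FPKM, at 2.28 against 0.763, and its part in the results was not tested.

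The 26S proteasome degrades proteins tagged with ubiquitin. Its 20S core is a stack of rings, with outer rings of alpha subunits that gate the channel and inner rings of beta subunits, of which PSMB5, PSMB6 and PSMB7 carry the active sites. The 19S regulatory particle sits on the core: a ring of ATPases (PSMC genes) unfolds the substrate, and non-ATPase subunits (PSMD genes) bind ubiquitin, remove it or hold the particle together. In immune cells and after interferon, PSMB8, PSMB9 and PSMB10 replace the catalytic subunits. When proteasome activity falls short, the transcription factor NFE2L1 raises the subunit genes together through antioxidant response elements in their promoters.

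Promoter sequence was read from RefSeq's table for GRCh38.p14 as the 250 bases before the annotated start, and 43 of 49 members matched by symbol. Where a gene had several starts, the one nearest to the 5' end of the deposited gene was used. The 8 sequences below are those of the 5 members at least 1.5-fold higher in shJAM3 (PSMD5, PSMG1, PSMG2, PSMB2 and PSMD8) and of the 3 at least 1.2-fold lower (PSMD3, PSME4 and PSMA1). They are shown so that genes on both sides can be compared at their starts, and the limit is lower for the second set because no member was 1.5-fold lower. They lie 5' to 3', with capitals for each match on either strand to TGACNNNGC, the core of the antioxidant response element. The windows are PSMD5 at chr9:120842923-120843172 on the minus strand, PSMG1 at chr21:39183452-39183701 on the minus strand, PSMG2 at chr18:12658488-12658737 on the plus strand, PSMB2 at chr1:35641527-35641776 on the minus strand, PSMD8 at chr19:38374321-38374570 on the plus strand, PSMD3 at chr17:39980557-39980806 on the plus strand, PSME4 at chr2:53970994-53971243 on the minus strand and PSMA1 at chr11:14520387-14520636 on the minus strand.
PSMD5: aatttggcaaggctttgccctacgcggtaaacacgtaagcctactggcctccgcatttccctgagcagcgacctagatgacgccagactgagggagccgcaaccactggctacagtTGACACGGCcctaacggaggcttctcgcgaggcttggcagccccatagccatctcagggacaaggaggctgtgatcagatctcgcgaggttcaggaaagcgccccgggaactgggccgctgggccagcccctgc
PSMG1: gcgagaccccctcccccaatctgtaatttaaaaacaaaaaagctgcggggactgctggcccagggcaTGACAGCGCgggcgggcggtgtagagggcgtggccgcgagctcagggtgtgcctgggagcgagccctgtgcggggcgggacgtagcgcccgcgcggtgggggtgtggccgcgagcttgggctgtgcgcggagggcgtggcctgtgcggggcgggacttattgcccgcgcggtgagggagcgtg
PSMG2: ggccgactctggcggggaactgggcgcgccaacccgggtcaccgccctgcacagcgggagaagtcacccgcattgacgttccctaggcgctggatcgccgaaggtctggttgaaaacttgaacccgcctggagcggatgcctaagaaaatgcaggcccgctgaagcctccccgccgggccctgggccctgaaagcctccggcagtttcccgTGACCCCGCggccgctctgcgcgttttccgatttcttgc
PSMB2: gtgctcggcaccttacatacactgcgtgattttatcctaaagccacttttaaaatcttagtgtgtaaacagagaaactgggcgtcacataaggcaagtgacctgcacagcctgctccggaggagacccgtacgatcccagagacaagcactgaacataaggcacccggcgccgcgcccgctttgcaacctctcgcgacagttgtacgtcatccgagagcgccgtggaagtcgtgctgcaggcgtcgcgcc
PSMD8: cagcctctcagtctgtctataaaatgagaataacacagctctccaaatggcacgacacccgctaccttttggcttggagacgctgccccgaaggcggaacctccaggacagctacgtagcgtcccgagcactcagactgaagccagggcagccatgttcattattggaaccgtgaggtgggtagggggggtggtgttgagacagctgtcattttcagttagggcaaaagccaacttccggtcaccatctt
PSMD3: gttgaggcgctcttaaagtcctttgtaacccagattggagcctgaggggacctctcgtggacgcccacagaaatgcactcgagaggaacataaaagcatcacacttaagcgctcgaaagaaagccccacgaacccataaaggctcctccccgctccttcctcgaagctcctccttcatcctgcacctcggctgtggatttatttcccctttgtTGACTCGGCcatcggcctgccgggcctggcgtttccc
PSME4: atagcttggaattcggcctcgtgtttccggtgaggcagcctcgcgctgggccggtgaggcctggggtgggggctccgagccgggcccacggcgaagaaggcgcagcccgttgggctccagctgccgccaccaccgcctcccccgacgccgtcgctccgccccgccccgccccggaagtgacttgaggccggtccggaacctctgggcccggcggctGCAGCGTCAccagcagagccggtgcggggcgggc
PSMA1: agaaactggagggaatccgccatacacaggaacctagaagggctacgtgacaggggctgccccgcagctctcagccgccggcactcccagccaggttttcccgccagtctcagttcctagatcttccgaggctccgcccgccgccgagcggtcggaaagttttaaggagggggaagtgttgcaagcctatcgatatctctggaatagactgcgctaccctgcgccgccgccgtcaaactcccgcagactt

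Matches stood in the windows of PSMD5, PSMG1, PSMG2, PSMD3 and PSME4, and none in those of PSMB2, PSMD8 and PSMA1. Thus these letters were present in the windows of genes on both sides. The match in PSMD5 was TGACACGGC, beginning 134 bases before the start, and the match in PSMG2 was TGACCCCGC, 39 bases before it. The core was found in 11 of 43 member windows (25.6%) and in 10.9% of all 35116 windows of the same length. It was in 5 of 13 windows of members at least 1.2-fold higher, in 2 of 3 of those lower and in 3 of 21 of those within 1.2-fold. The CCAAT box, CCAAT on either strand, was in 19 of 43 member windows and in 32.0% of all windows. These matches describe letters only, and binding was not measured.

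Another pair of windows carries the core of the interferon response element, GAAA, any 2 bases and GAAA on either strand, here in capitals. They belong to PSME2, a subunit of the PA28 activator, and PSMB10, an immunoproteasome subunit. Both genes are known to respond to interferon. The windows are PSME2 at chr14:24146611-24146860 on the minus strand and PSMB10 at chr16:67936851-67937100 on the minus strand.
PSME2: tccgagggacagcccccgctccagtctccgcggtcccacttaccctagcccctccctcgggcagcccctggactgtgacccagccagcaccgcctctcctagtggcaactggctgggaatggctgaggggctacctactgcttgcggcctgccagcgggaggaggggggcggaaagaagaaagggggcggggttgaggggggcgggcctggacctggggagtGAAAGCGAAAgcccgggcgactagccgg
PSMB10: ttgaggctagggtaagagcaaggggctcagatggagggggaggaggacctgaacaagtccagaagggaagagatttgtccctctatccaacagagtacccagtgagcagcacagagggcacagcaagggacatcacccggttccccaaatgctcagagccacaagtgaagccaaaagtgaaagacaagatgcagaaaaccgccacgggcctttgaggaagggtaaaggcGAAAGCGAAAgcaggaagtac

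Both held the same 10 letters, GAAAGCGAAA, within 28 bases of the start, and PSMG4 held them too, beginning 33 bases before its start. The core was in 5 of 43 member windows and in 3.02% of all windows. The other 3 were PSMA4, PSMB4 and PSMG4. The window used for PSMB8 held no match.

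Proteasome transcripts were on the higher side in shJAM3. A gene counted as measured where its mean of both libraries reached 1 FPKM, as in 43 members. Of these, 35 had a higher value in shJAM3 and 8 a lower one, against 5182 higher and 5316 lower among 10499 measured protein-coding genes. The median difference in log2(FPKM + 1), shJAM3 minus shControl, was 0.20 for the members and -0.01 for all measured genes. The 48 proteasome genes without PSMC3IP took 0.396% of fragments in shControl (exact binomial 95% interval 0.393 to 0.399) and 0.461% in shJAM3 (0.458 to 0.464). Intervals here and in brackets below cover counting error only, and PCR copies can make them too narrow.

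By a rule of size, a difference of at least 1.2-fold on the log2(FPKM + 1) scale, 15 of 43 members were higher (34.9%) and 3 were lower (6.98%). Among all measured protein-coding genes 24.1% were at least 1.2-fold higher and 26.9% at least 1.2-fold lower. At 1.5-fold 5 members were higher and 0 lower, against 5.12% and 9.3% of all genes. At 2-fold only PSMD5 was higher and 0 members were lower, against 0.391% and 1.41%. The counting interval of the ratio lay above 1 for 27 members and below 1 for 4, against 34.5% and 36.8% of all genes.

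**Figure D1:**
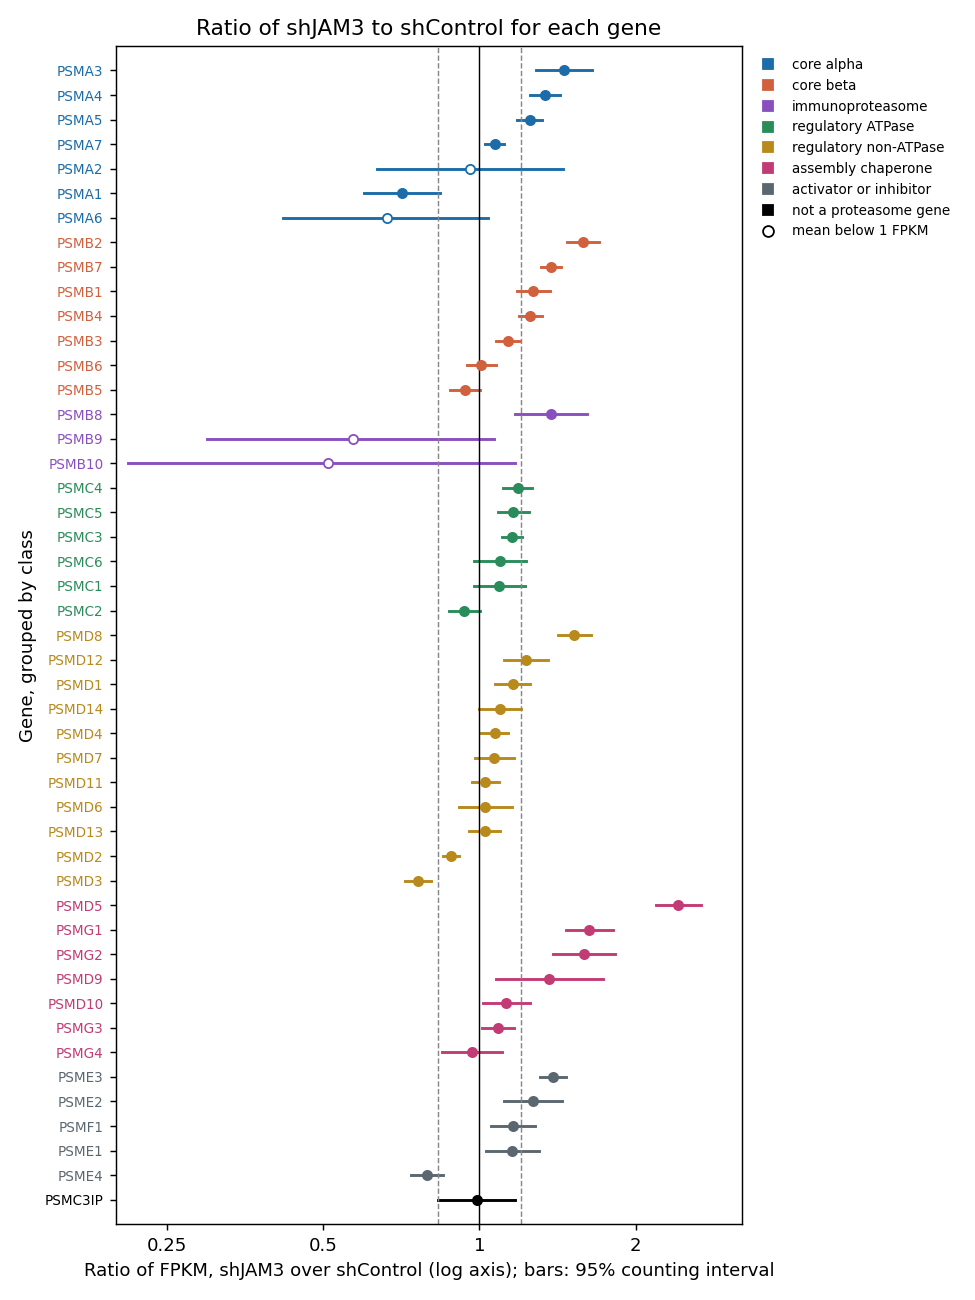
Ratio of FPKM in shJAM3 to shControl for each of 47 genes (log axis), grouped by class and sorted within it, with bars for the 95% counting interval. Open points have a mean below 1 FPKM, dashed lines mark 1.2-fold either way, and PSMA8 and PSMB11 had no fragment. PSMD5 stands furthest right at 2.41, and the measured member furthest left is PSMA1 at 0.711.

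The log2 difference between these libraries also followed GC content, so GC-centred values are given beside the counts. Across 10 bins of GC the median of all measured genes went from 0.24 at the lowest GC to -0.44 at the highest. The members' median GC was 49.6% against 49.7% for all measured genes, and across members r was -0.16 (n = 43 genes, from the same libraries), against -0.50 across all genes. After each gene was centred on the median of its GC bin, 15 members were again at least 1.2-fold higher and 3 lower, of which 12 and 2 were the same genes. The corresponding shares of all genes were 20.6% and 21.8%. The median of the members was then 0.13. With that centring PSMC6, PSMD6, PSMD7, PSMD10, PSMD11 and PSMD14 went from above 0 to below it. No measured member went the other way, so fewer members were then on the higher side.

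**Figure D2:**
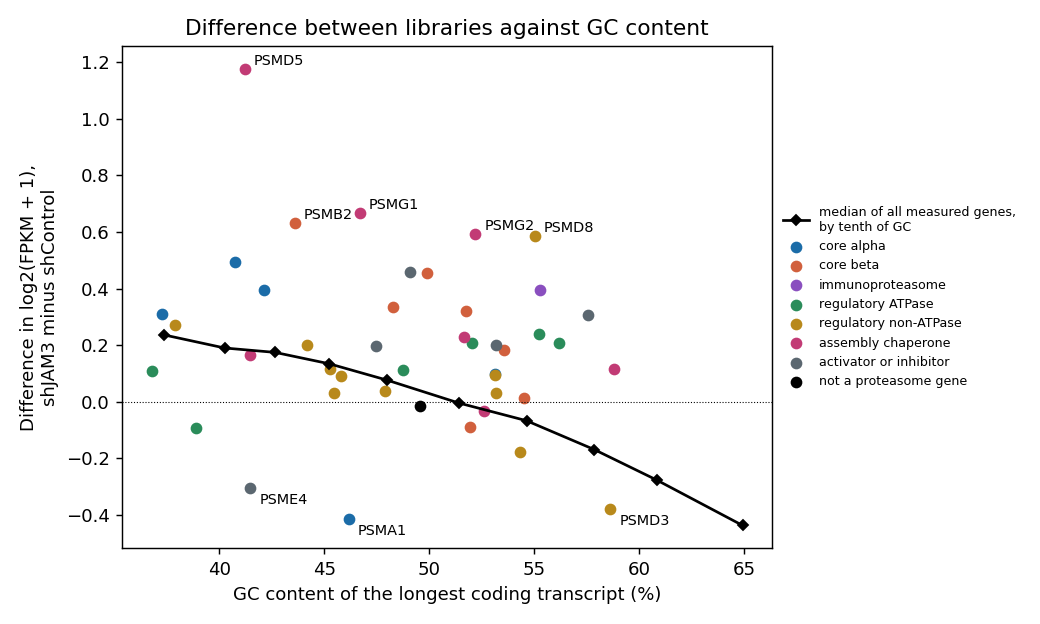
Difference in log2(FPKM + 1), shJAM3 minus shControl, against GC content of the longest coding transcript for the 43 measured members (points, by class). The black line gives the median of all measured protein-coding genes in each of 10 bins of GC, falling from 0.24 to -0.44. PSMD5, PSMG1, PSMG2, PSMB2 and PSMD8 lie above the line, and PSMA1, PSME4 and PSMD3 below it.

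Among the core alpha subunits, 3 of 5 measured members were at least 1.2-fold higher and 1 lower, against 24.1% and 26.9% of all genes. Their median difference was 0.31, or 0.14 after GC centring. The alpha subunits form the gated outer rings. PSMA3 (alpha7) was at 8.62 FPKM in shControl against 12.5 in shJAM3 (ratio 1.45, 1.28 to 1.65). PSMA4 (alpha3) was at 13.9 FPKM in shControl against 18.6 in shJAM3 (ratio 1.34, 1.25 to 1.43). Both lay above 1 beyond counting error. PSMA5 (alpha5) was at 24.5 FPKM in shControl against 30.6 in shJAM3 (ratio 1.25, 1.18 to 1.32). PSMA7 (alpha4), with the highest level of all members, was at 152 FPKM in shControl against 163 in shJAM3 (ratio 1.07, 1.03 to 1.12). It differed by less than 1.2-fold. PSMA1 (alpha6) was on the other side, at 6.39 FPKM in shControl against 4.54 in shJAM3 (ratio 0.711, 0.600 to 0.841). It is also a gene most of whose coding sequence is shared with a second gene, as described below. After GC centring the log2 differences of PSMA4 and PSMA5 were 0.20 and 0.06, and that of PSMA3 was 0.32, the only alpha subunit then at least 1.2-fold higher.

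PSMA2 (alpha2) and PSMA6 (alpha1), obligate parts of the core, were not measured by the 1 FPKM rule. PSMA2 was at 0.598 FPKM in shControl against 0.573 in shJAM3 (ratio 0.959, 0.635 to 1.45), with 49 and 51 fragments. PSMA6 was at 0.500 FPKM in shControl against 0.332 in shJAM3 (ratio 0.663, 0.420 to 1.04), with 50 and 36 fragments. Neither interval excluded 1. PSMA8, the testis form of alpha4, had no fragment in either library, which allows up to 0.103 FPKM in shControl and 0.0950 in shJAM3 (3 fragments each). PSMB11, the beta5 subunit of the thymus, was also at 0 in both, with limits of 0.0926 and 0.0852 FPKM.

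The core beta subunits were all measured, with a median of 0.32 (0.26 after GC centring). Of these 7, 4 were at least 1.2-fold higher and 0 lower, against 24.1% and 26.9% of all genes. PSMB2 (beta4), a structural subunit, differed most, at 16.7 FPKM in shControl against 26.5 in shJAM3 (ratio 1.58, 1.48 to 1.70). PSMB7 (beta2), which carries the trypsin-like active site, was at 112 FPKM in shControl against 154 in shJAM3 (ratio 1.37, 1.31 to 1.44). The structural subunit PSMB1 (beta6) was at 37.0 FPKM in shControl against 47.0 in shJAM3 (ratio 1.27, 1.18 to 1.37). PSMB4 (beta7) was at 82.0 FPKM in shControl against 103 in shJAM3 (ratio 1.25, 1.19 to 1.32). These 4 genes were also at least 1.2-fold higher after GC centring. PSMB3 (beta3) was at 134 FPKM in shControl against 152 in shJAM3 (ratio 1.14, 1.08 to 1.199), short of 1.2-fold.

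The other two catalytic subunits were near 1. PSMB5 (beta5) carries the chymotrypsin-like site that bortezomib blocks, and was at 64.4 FPKM in shControl against 60.4 in shJAM3 (ratio 0.938, 0.877 to 1.00). PSMB6 (beta1), with the caspase-like site, was at 79.4 FPKM in shControl against 80.1 in shJAM3 (ratio 1.01, 0.945 to 1.08). Both intervals include 1, and that of PSMB7 does not.

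Immunoproteasome transcripts were low in both libraries. PSMB8 (beta5i) was the only one measured, at 5.73 FPKM in shControl against 7.86 in shJAM3 (ratio 1.37, 1.17 to 1.61), from 264 and 393 fragments. PSMB9 (beta1i) was at 0.615 FPKM in shControl against 0.351 in shJAM3 (ratio 0.572, 0.299 to 1.06), from 29 and 18 fragments. PSMB10 (beta2i) was at 0.632 FPKM in shControl against 0.324 in shJAM3 (ratio 0.512, 0.211 to 1.17), from 18 and 10 fragments. The higher level in shJAM3 thus lay beyond counting error for PSMB8, while differences in PSMB9 and PSMB10 were not detectable at this depth.

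Each inducible subunit was set against the constitutive subunit it replaces. PSMB8 stood at 8.91% of the FPKM of PSMB5 in shControl and 13.0% in shJAM3. The change in that ratio was 1.46 (exact conditional interval 1.23 to 1.74). PSMB9 stood at 0.774% and 0.439% of PSMB6, a change of 0.567 (0.296 to 1.06). PSMB10 stood at 0.564% and 0.210% of PSMB7, a change of 0.373 (0.154 to 0.853). The pairs did not go the same way: the ratio was higher in shJAM3 for PSMB8 and lower for PSMB10, and for PSMB9 the interval included 1. After GC centring the change for PSMB10 was 0.451 (0.186 to 1.03), an interval that also includes 1, from 18 and 10 fragments. PSMB10 is also among the genes with shared coding sequence described below.

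PSMB8 and PSMB9 are neighbours on chromosome 6, at 32840717 to 32844703 on the minus strand and 32844136 to 32859585 on the plus strand (GRCh38). Their exons share 139 bases. The antisense gene PSMB8-AS1 covers 20.6% of the PSMB8 exon bases and had 10 and 5 fragments. The library protocol describes no step that marks the strand, so fragments from these stretches cannot be told apart by gene. Of the peptide loading genes, TAP1, which encodes a chain of the peptide transporter, was at 17.8 FPKM in shControl against 10.8 in shJAM3 (ratio 0.610, 0.559 to 0.665). TAPBP, the chaperone tapasin, had a ratio of 0.720 (0.691 to 0.750). TAP2 at 1.01 and B2M at 1.19 were within 1.2-fold.

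Of the 6 ATPases of the regulatory ring, none was at least 1.2-fold higher or lower, against 24.1% and 26.9% of all genes. Their median was 0.16 (0.13 after GC centring). PSMC4 (Rpt3) had the highest ratio, at 46.3 FPKM in shControl against 54.9 in shJAM3 (ratio 1.18, 1.11 to 1.26). PSMC3 (Rpt5) had the highest level, at 109 FPKM in shControl against 126 in shJAM3 (ratio 1.16, 1.11 to 1.21). PSMC5 (Rpt6) had a ratio of 1.16 (1.09 to 1.25). The interval excluded 1 for these 3 genes. It included 1 for PSMC1 (Rpt2) at 1.09 (0.977 to 1.22) and PSMC6 (Rpt4) at 1.09 (0.975 to 1.23). PSMC2 (Rpt1) was the only ATPase on the lower side, at 30.9 FPKM in shControl against 28.9 in shJAM3 (ratio 0.936, 0.874 to 1.00). After GC centring PSMC3 and PSMC4 were at least 1.2-fold higher and PSMC2 at least 1.2-fold lower.

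Of the 11 non-ATPase subunits, 2 were at least 1.2-fold higher (18.2%) and 1 lower (9.09%), against 24.1% and 26.9% of all genes. After GC centring 1 was higher (9.09%) and 0 lower, against 20.6% and 21.8% of all genes. The median was 0.09, and -0.0092 after GC centring, of the opposite sign. PSMD8 (Rpn12), a lid subunit, was at 24.6 FPKM in shControl against 37.4 in shJAM3 (ratio 1.52, 1.42 to 1.64). PSMD12 (Rpn5), also of the lid, was at 8.87 FPKM in shControl against 10.9 in shJAM3 (ratio 1.23, 1.12 to 1.35), and its log2 difference went from 0.27 to 0.06 with GC centring. PSMD3 (Rpn3), the lid partner of PSMD8, was at 32.7 FPKM in shControl against 24.9 in shJAM3 (ratio 0.762, 0.718 to 0.808). Thus PSMD8 and PSMD3 lay on opposite sides of 1 beyond counting error. The log2 difference of PSMD3 went from -0.38 to -0.19 with GC centring, and that of PSMD8 from 0.59 to 0.68.

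The scaffold subunits of the base also differed in sign. PSMD2 (Rpn1), which docks ubiquitin shuttles, was at 69.8 FPKM in shControl against 61.6 in shJAM3 (ratio 0.882, 0.850 to 0.915). PSMD1 (Rpn2) was at 15.0 FPKM in shControl against 17.4 in shJAM3 (ratio 1.16, 1.07 to 1.25). Neither was past 1.2-fold. PSMD4 (Rpn10), a ubiquitin receptor, was at 42.1 FPKM in shControl against 45.0 in shJAM3 (ratio 1.07, 1.01 to 1.14). PSMD14 (Rpn11), the deubiquitinase of the lid, was at 7.02 FPKM in shControl against 7.70 in shJAM3 (ratio 1.10, 0.999 to 1.204), an interval that includes 1. The lid subunits PSMD6, PSMD7, PSMD11 and PSMD13 had ratios of 1.03, 1.07, 1.03 and 1.02, all with intervals that include 1.

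The assembly chaperones help the particle form and are absent from the finished one. Of 7 measured, 3 were at least 1.2-fold higher and 0 lower, against 24.1% and 26.9% of all genes. All 3 were also at least 1.5-fold higher, against 5.12% of all genes. PSMD5 (S5b), a chaperone of the ATPase ring, was at 8.25 FPKM in shControl against 19.9 in shJAM3 (ratio 2.41, 2.19 to 2.67). PSMG1 (PAC1) was at 14.9 FPKM in shControl against 24.2 in shJAM3 (ratio 1.63, 1.47 to 1.81). PSMG2 (PAC2), which pairs with PAC1 to build the alpha ring, was at 6.40 FPKM in shControl against 10.2 in shJAM3 (ratio 1.59, 1.38 to 1.82). The intervals of all 3 lay above 1. The GC-centred log2 differences were 1.00, 0.58 and 0.61.

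The other chaperones were within 1.2-fold. PSMG3 (PAC3) was at 48.7 FPKM in shControl against 52.9 in shJAM3 (ratio 1.09, 1.01 to 1.16), with a GC-centred log2 difference of 0.30. Its partner PSMG4 (PAC4) was at 2.78 FPKM in shControl against 2.69 in shJAM3 (ratio 0.969, 0.849 to 1.11). PSMD10 (gankyrin), a chaperone of the ATPase ring, was at 17.8 FPKM in shControl against 20.0 in shJAM3 (ratio 1.13, 1.02 to 1.25). PSMD9 (p27) was at 0.898 FPKM in shControl against 1.22 in shJAM3 (ratio 1.36, 1.08 to 1.73), but at this low level the added 1 FPKM kept its log2 difference at 0.23. The median of the class was 0.23, and 0.59 among its 5 members with a mean of at least 5 FPKM. PSMD5 lies on chromosome 9 at 120815496 to 120842984 on the minus strand, and no other annotated exon overlaps its own. PSMG1, on chromosome 21 at 39174769 to 39183851, also shares no exon base, while 16.7% of those of PSMG2 lie under other genes. These are CEP76 (13.9%) and SPIRE1 (2.74%), both on the opposite strand, and no coding base is shared. CEP76 was at 1.31 FPKM in shControl against 2.18 in shJAM3, and SPIRE1 at 8.50 against 5.20. Their part in the ratio of PSMG2 was not tested.

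Of the 5 activators and inhibitors, 2 were at least 1.2-fold higher and 1 lower, against 24.1% and 26.9% of all genes. Their median was 0.20 (0.24 after GC centring). PSME3 (PA28 gamma), which caps the core in the nucleus, was at 24.6 FPKM in shControl against 34.1 in shJAM3 (ratio 1.39, 1.31 to 1.47). PSME2 (PA28 beta) was at 7.61 FPKM in shControl against 9.66 in shJAM3 (ratio 1.27, 1.12 to 1.44). Its partner in the interferon-inducible cap, PSME1 (PA28 alpha), was at 19.3 FPKM in shControl against 22.4 in shJAM3 (ratio 1.16, 1.03 to 1.30). PSME1 and PSME2 are close neighbours on chromosome 14, with PSME1 at 24136158 to 24138967 on the plus strand and PSME2 at 24143362 to 24147570 on the minus strand (GRCh38). PSME4 (PA200), another cap of the core, went the other way, at 10.48 FPKM in shControl against 8.30 in shJAM3 (ratio 0.792, 0.737 to 0.851). Its log2 difference was -0.30, and -0.48 after GC centring. PSMF1 (PI31), first described as an inhibitor, was at 9.26 FPKM in shControl against 10.7 in shJAM3 (ratio 1.16, 1.05 to 1.28). PSMC3IP was at 6.63 FPKM in shControl against 6.55 in shJAM3 (ratio 0.988, 0.832 to 1.17).

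Subunits that stand in the particle in equal number differed widely in transcript level. Median FPKM of the core beta subunits was 79.4 in shControl and 80.1 in shJAM3, with the highest and lowest 7.99-fold apart in shControl. The core alpha subunits had medians of 8.62 and 12.5, and PSMA7 stood 304-fold above PSMA6 in shControl and 491-fold in shJAM3. Medians of the ATPases were 25.97 and 26.7, with PSMC3 23.1-fold above PSMC6 in shControl. Those of the non-ATPase subunits were 20.6 and 21.0, with PSMD2 18.0-fold above PSMD6.

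**Figure D3:**
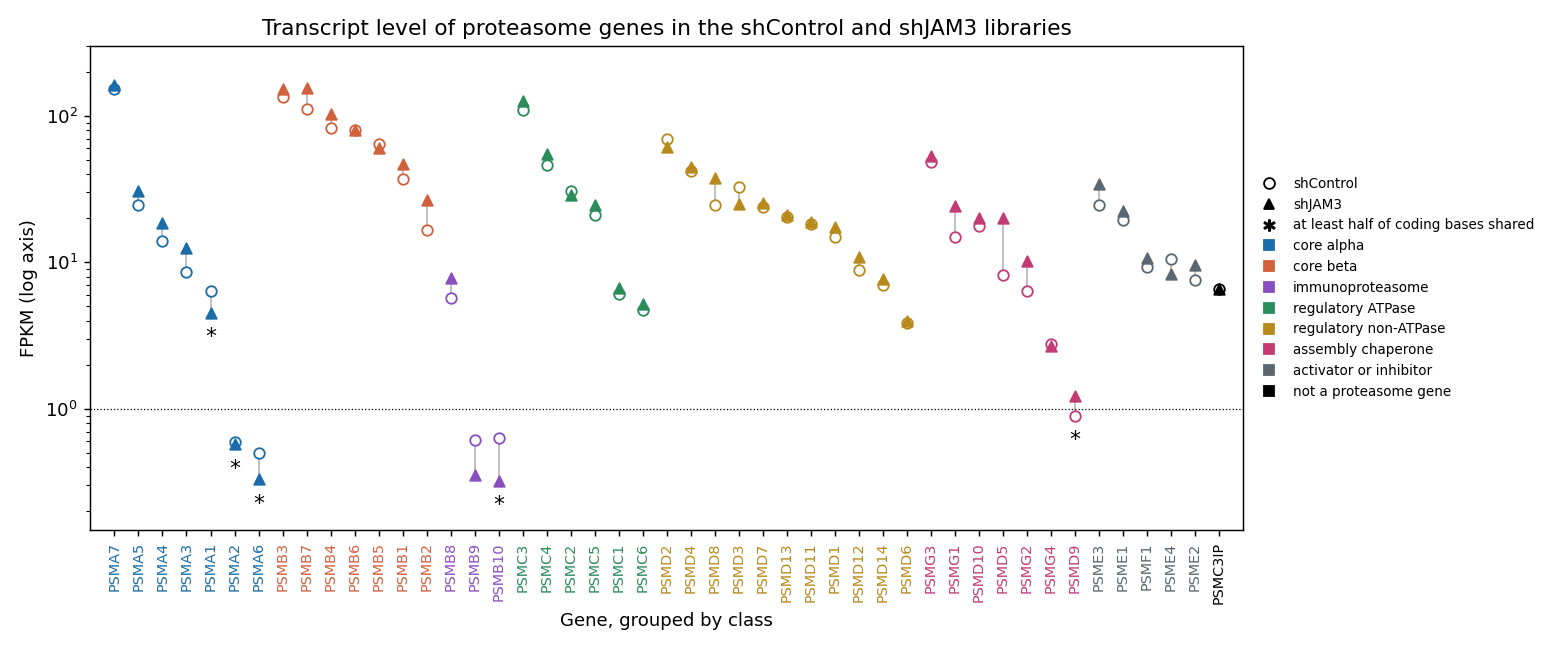
FPKM (log axis) of 47 genes in shControl (open circles) and shJAM3 (filled triangles), by class and in order of level. A star marks the 5 genes with at least 50% of their coding bases under another gene, and the dotted line is 1 FPKM. PSMA2 and PSMA6 sit below 1 FPKM, far below PSMA7 at 152 and 163.

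Several of the low members share coding sequence with a second annotated gene. Each base of a coding exon was checked against the exons of all other GENCODE 29 genes. At least 50% of coding bases were shared in 5 members: PSMA2 (100%), PSMA1 (88.6%), PSMA6 (70.4%), PSMD9 (67.5%) and PSMB10 (58.3%). In each of them the sharing gene is a protein-coding gene with only a clone name on the same strand. Those genes, in the same order, are AC010132.3, AC018523.2, AL121594.1, AC069503.2 and AC040162.1. AC010132.3 had 0 fragments in shControl and 1 in shJAM3, AC040162.1 had 11 and 15, and the other 3 had none. The second genes thus hold few or no fragments, in both libraries.

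The 5 members with shared coding sequence had a median level of 0.585 FPKM (mean of both libraries), and 2 of 5 were measured. The 44 others had a median of 20.2 FPKM, and 41 were measured. The 3 not measured, PSMA8, PSMB9 and PSMB11, share no coding base. Across all protein-coding genes with an annotated coding sequence, the median was 0.346 FPKM for 1003 genes with at least 50% shared and 1.78 FPKM for 18347 others. The processing notes name featureCounts, while its treatment of fragments on more than one gene was not given in the sources used here. Its part in these levels was not tested. PSMC1 stands just below the line, with 47.7% of coding bases and 75.8% of all exon bases under NRDE2 on the opposite strand, and is among the lowest ATPases. Without the 3 alpha subunits concerned, PSMA7 stood 17.6-fold above the lowest alpha subunit, PSMA3, in shControl. The median of the core alpha subunits was then 19.2 FPKM in shControl and 24.6 in shJAM3, in place of 8.62 and 12.5.

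**Figure D4:**
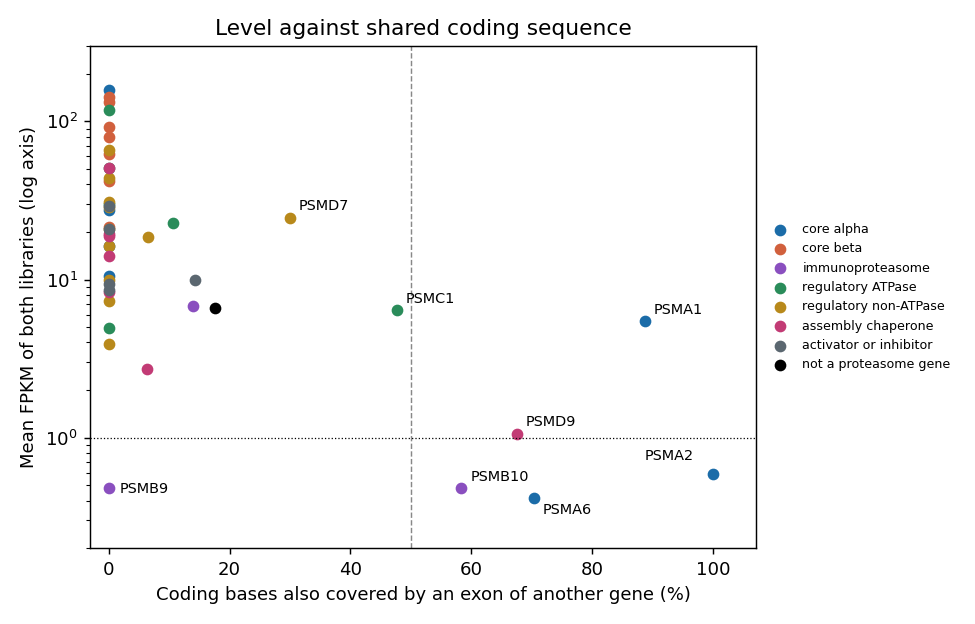
Mean FPKM of both libraries (log axis) against the percent of a gene's coding bases also covered by an exon of another gene, for 47 genes coloured by class. Right of the dashed line at 50% are PSMA2, PSMA1, PSMA6, PSMD9 and PSMB10, the highest of them PSMA1 with a mean of 5.47 FPKM, and PSMB9 is the only gene below 1 FPKM with no shared coding base.

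Levels also depend on the length used. The deposited lengths are the union of all annotated exons, and several members carry long isoforms in that union, such as PSMC6 with 7482 bases against 2188 in its longest coding transcript. Per kilobase of the longest coding transcript, medians in shControl were 132 for core beta, 22.0 for core alpha, 47.8 for the ATPases and 39.1 for the non-ATPase subunits. The spread between highest and lowest in shControl was then 124-fold for core alpha, with PSMA2 lowest, 10.6-fold for core beta, 18.5-fold for the ATPases and 10.2-fold for the non-ATPase subunits. The lowest ATPase was then PSMC1 in place of PSMC6, and the lowest non-ATPase subunit PSMD12 in place of PSMD6. The ratio of a gene between the libraries does not depend on its length, but the 1 FPKM rule and the added 1 FPKM do. By the longest coding transcript, PSMA2 was at 2.15 in shControl against 2.06 in shJAM3. PSMA6 was then at 3.16 against 2.10, and PSMB9 at 2.38 against 1.36. These genes would then count as measured, and the calls were not repeated with these lengths.

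Annotated pseudogenes of these genes held little signal. Of 32 pseudogene rows, 9 had any fragment, with 45 fragments in all in shControl and 73 in shJAM3. The most were in PSMC1P1, with 22 and 47, against 579 and 687 in PSMC1 itself. PSMA6P1 had 13 in each library, against 50 and 36 in PSMA6.

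Proteasome genes that the symbol rule leaves out went both ways. Of 8 measured, 2 were at least 1.2-fold higher and 2 lower, against 24.1% and 26.9% of all genes, with a median of 0.14 (-0.04 after GC centring). POMP, the maturation factor of the core, was at 39.6 FPKM in shControl against 49.3 in shJAM3 (ratio 1.24, 1.14 to 1.36). SEM1, the smallest lid subunit, had a ratio of 1.30 (1.16 to 1.45). ADRM1 (Rpn13), a ubiquitin receptor, was at 66.1 FPKM in shControl against 48.9 in shJAM3 (ratio 0.741, 0.695 to 0.789). AKIRIN2, which brings proteasomes into the nucleus, had a ratio of 0.817 (0.731 to 0.912). GC centring left none of the 8 past 1.2-fold.

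Of 16 measured genes that deliver or process ubiquitinated substrates, 1 was at least 1.2-fold higher (6.25%) and 6 lower (37.5%), against 24.1% and 26.9% of all genes. Their median was -0.18, and 4 of 16 lay above 0. After GC centring 0 were higher and 7 lower, with a median of -0.24, and 21.8% of all genes were lower. The segregase VCP was at 53.0 FPKM in shControl against 41.1 in shJAM3 (ratio 0.776, 0.743 to 0.811), and its cofactor NPLOC4 had a ratio of 0.735 (0.704 to 0.767). The shuttle factor UBQLN1 was at 29.6 FPKM in shControl against 21.4 in shJAM3 (ratio 0.723, 0.686 to 0.762). ZFAND5, a proteasome-binding zinc finger protein, had a ratio of 0.669 (0.623 to 0.719). MIDN at 0.792 and the protease DDI2 at 0.777 were also lower. USP14, the deubiquitinase that docks on PSMD2, was the one higher, at 1.27 (1.18 to 1.36). The GC-centred log2 differences of MIDN and USP14 were 0.0057 and 0.11, both within 1.2-fold.

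Of 10 measured regulators of subunit transcription, 0 were at least 1.2-fold higher and 5 lower, against 24.1% and 26.9% of all genes, with a median of -0.22. After GC centring 4 of 10 were lower, against 21.8% of all genes, with a median of -0.18. NFE2L1, the factor that raises subunit genes when the proteasome is impaired, was at 55.8 FPKM in shControl against 35.2 in shJAM3 (ratio 0.631, 0.604 to 0.659). Its small MAF partners MAFG and MAFK were at 43.1 FPKM in shControl against 18.6 in shJAM3, and at 97.7 FPKM in shControl against 64.4 in shJAM3. Their ratios were 0.431 (0.406 to 0.458) and 0.659 (0.635 to 0.684). MAFF, another small MAF, had a ratio of 0.939 (0.809 to 1.09), within 1.2-fold, and a GC-centred log2 difference of 0.16. The GC-centred log2 differences of NFE2L1, MAFG and MAFK were -0.55, -1.005 and -0.23. KEAP1 was at -0.13 on that scale, so MAFK and KEAP1 were then within 1.2-fold. BACH1, which competes for the same elements, was at -0.29 on that scale and thus at least 1.2-fold lower. Before centring BACH1 had a ratio of 0.938 (0.855 to 1.03), within 1.2-fold and with an interval that includes 1. NFE2L2, the related factor of the oxidative stress response, had a ratio of 1.13 (1.04 to 1.23), and KEAP1, which holds it down, of 0.763 (0.684 to 0.851). NLRC5, the activator of MHC class I genes, had a ratio of 0.563 (0.500 to 0.633).

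Among genes that supply ubiquitin, RPS27A, a fusion of ubiquitin and a ribosomal protein, was at 135 FPKM in shControl against 168 in shJAM3 (ratio 1.25, 1.21 to 1.29), and its GC-centred log2 difference was 0.18, within 1.2-fold. UBB, a polyubiquitin gene, had a ratio of 1.11 (1.07 to 1.15), within 1.2-fold. UBA1, the activating enzyme, had a ratio of 0.899 (0.872 to 0.928).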

How the data were processed

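RNA was measured in 1 shControl and 1 shJAM3 library by poly(A)-selected sequencing. The authors deposited 1 table of FPKM for 58735 genes, with symbols, coordinates, lengths and biotypes. Per the submitters' processing notes, the tools were HISAT2 2.0.5 and STAR, featureCounts 1.5.0-p3, fastp, edgeR 3.22.5 and DESeq2 1.20.0, besides STAR-Fusion and GATK 4.1.1.0, with no role or order stated. The build is not given in the labels. All 58735 identifiers, coordinates, symbols and exon-union lengths equalled GENCODE 29 (GRCh38). Multiplied by length, 100% of deposited FPKM values above 0 were whole multiples of what 1 fragment is worth (tolerance 0.001), which gave fragments. The implied library sizes were 0.987 and 1.01 times the fragment totals, so the deposited values carry a further scaling with a method not given in the sources used here.

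Symbols on several rows kept the row with the highest mean. Differences are log2(FPKM + 1), and ratios are of FPKM, with exact conditional binomial 95% intervals. Calls use 1.2-fold among genes whose mean reached 1 FPKM. Scripts ran in Python 3.11.15 (numpy 2.4.6, scipy 1.17.1, pandas 2.3.3) and were tested on simulated data. Values are printed for the immunoproteasome and its partners, activators, members past 1.2-fold and the extremes of each class, and for list members past 1.2-fold. Other genes were named after their values were seen, to account for each member, and some list genes are not reported here. GC content came from the longest coding transcript, in 20 bins. Alternative scalings, filters, pseudocounts, fold rules and GC centring were tried, with their effect in the closing section. The members and lists were chosen with earlier results of these data known.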

Additional observations from a re-analysis of the deposited data

How the results depend on the processing

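No paired analysis was possible because each group has 1 library. For the same reason no replicate could be left out. The alternatives were a pseudocount of 0.1 FPKM, scaling to total fragments, TPM, centring on the median, GC centring, added pseudogene fragments, a mean of at least 5 FPKM and no filter, with 3 settings chosen after seeing the data: GC centring without the added 1, leaving out genes with shared coding sequence, and transcript length. The median of all measured members stayed between 0.12 and 0.23 on the log2 scale. The median of the core alpha class was 0.14 after GC centring and 0.10 with no filter, which brings in PSMA2 and PSMA6. With no filter the immunoproteasome median was -0.26 in place of 0.40, since PSMB9 and PSMB10 enter. GC centring turned the non-ATPase median to -0.0092. The count of 15 higher members became 5 at 1.5-fold and 1 at 2-fold, and the 3 lower members became 0 under both. Transcript length was applied to levels only, and not to the calls. Per transcript length, median levels in shControl were 22.0 (core alpha), 132 (core beta), 47.8 (ATPases) and 39.1 (non-ATPases), and in shJAM3 they were 29.5, 133, 51.6 and 41.7. Of the 43 single genes, 18 moved beyond their counting interval with GC centring, and none did under the 5 other settings tried on single genes. Other causes were not tested. PSMB9 and PSMB10, with under 30 fragments a library, are limited by depth.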
